A study of Mus musculus with 24 samples.

Results

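The Hox genes of the 4 mouse clusters and the genes for their Meis and Pbx partners were followed through neural differentiation of embryonic stem cells (ESCs) with and without the phosphatase genes Cdc14a and Cdc14b. Members were taken by gene symbol, and 37 of the 17545 genes in the table matched: 28 Hox genes coding for protein, 2 antisense Hox transcripts (Hoxa11os and Hoxb3os), 3 Meis genes and 4 Pbx genes. Of the Hox rows, antisense transcripts included, 8 belonged to Hoxa, 10 to Hoxb, 7 to Hoxc and 5 to Hoxd, and other genes of these clusters were not analysed here. The genotypes sampled were Cdc14ab KO (both genes deleted), Cdc14b KO, Cdc14a KO and wild type. Each had 2 clones, numbered 1 and 3, at day 0 in LIF-containing medium and at days 2 and 7 of differentiation, which gave 24 libraries in 12 groups of 2. The differentiating cells were in N2B27 with EGF and FGF2, and at day 6 these factors were withdrawn and the cells replated on laminin. All lines came from blastocysts and had been grown on feeder cells, which were removed by passage on gelatin before RNA was taken. A genotype here is a pair of clones. In what follows Cdc14b-null means Cdc14ab KO and Cdc14b KO together, and Cdc14b-intact means Cdc14a KO and wild type together.

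Hox genes code for homeodomain transcription factors that tell cells their place along the head-to-tail axis. Within a cluster they lie in the order in which they are used: genes with low paralogue numbers, at the 3′ end, are switched on first and mark hindbrain, while genes with high numbers, at the 5′ end, follow later and mark trunk, tail and limb levels. Hox proteins bind DNA weakly alone and gain specificity with the TALE homeodomain proteins of the Pbx and Meis families: Pbx binds DNA side by side with a Hox protein, and Meis keeps Pbx in the nucleus. In ESCs the clusters are held silent by Polycomb complexes, and retinoic acid, Wnt and FGF signals open them. Below, paralogues 1 to 4 are called anterior (10 genes in the table), 5 to 8 central (9) and 9 to 13 posterior (9).

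Libraries were made from the 3′ ends of transcripts and held 6422883 to 10856721 reads (median 8015247). Levels are the authors' normalized counts, which are not divided by length, and differences are log2 differences of (normalized count + 1) ± SE, a scale that understates changes of low genes. A gene was tested when at least 2 libraries reached 10 normalized counts, which 34 members did, while Hoxd8, Hoxd11 and Hoxd13 did not meet this and are described by range. A gene is called at an adjusted p under 0.05. Reads of Cdc14a and Cdc14b gave no check of the deletions, and the part deleted is not given in the sources used here. Cdc14b had 233 to 325, 96.7 to 212 and 101 to 157 normalized counts in Cdc14b-null lines at days 0, 2 and 7, against 104 to 168, 141 to 288 and 164 to 197 in Cdc14b-intact lines. Cdc14a had 4.2 to 25.9 in lines with Cdc14a deleted and 4.4 to 28 in the others over all days. Over 7% of reads lay on Gm42418 in 3 libraries (Cdc14ab KO clone 1 and Cdc14b KO clone 3 at day 0, Cdc14a KO clone 1 at day 2), and wild-type clone 3 at day 7 was called undifferentiated in 1 label and day 7 in the others. Summed counts of 8 ESC markers were 25061 to 48149 at day 0, 8795 to 25859 at day 2 and 8448 to 21894 at day 7, so differentiating cultures still held ESC transcripts. Genes sharing a strand and overlapping (Hoxa3 with Hoxa4 and Hoxa5; Hoxc5 with Hoxc6, Hoxc8, Hoxc9 and Hoxc10) could share reads, and the assignment of such reads is not given in the sources used here.

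Sequences upstream of members were looked at because several moved together. RefSeq promoter windows (GRCm38.p6, 250 bases before to 50 after the start) were at hand for 21 of the 37 members and were searched on both strands. The composite site of Pbx with an anterior or central Hox protein, TGATNNAT, was found for 4 of these 21 members and in 8.85% of all 32851 windows. It lay in the windows of Hoxb1, Hoxa2, Hoxb8 and Hoxd11, of which Hoxb1, Hoxa2 and Hoxb8 recur in the results below. The Meis core TGACAG was in the windows of Hoxa2, Hoxa3 and Hoxa11os, against 19.2% of all windows. A pair of AGGTCA half-sites in the same direction, spaced by 5 bases, the repeat bound by retinoic acid receptors, was in none of the 21 and in 0.00913% of all windows, and the composite site and the Meis core of Hoxa2 did not overlap. The stretches that hold the composite site in the members that recur, and the Meis core of Hoxa2, are shown on the strand of the gene with the motif, or its reverse complement, in capitals.
Hoxb1: tgattggggggTGATGGATgggcgctggga
Hoxa2: gacttttttggATCAATCAaacagacagtg
Hoxb8: ataataaggaaATTGATCAttaaagcttta
Hoxa2, Meis core: gaagcaatcatgTGACAGccaattcggtcc
They lie at chr11:96365585-96365614 (plus strand), chr6:52164924-52164953 (minus strand), chr11:96281883-96281912 (plus strand) and chr6:52164858-52164887 (minus strand), all upstream of or across the RefSeq start. Counted from the start base as 0, the composite sites span -162 to -155 in Hoxb1, -111 to -104 in Hoxa2 and -11 to -4 in Hoxb8. Matches among members were counted by gene and those among all promoters by window, so the member counts and the percentages are in unlike units. A match is a description of letters and no evidence of binding.

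At day 0 the Hox genes were close to silent in every genotype, whereas their Pbx partners were not. Hoxa2, which specifies the anterior hindbrain, was at 0 in 5 of 8 libraries and at most 1.27 normalized counts in the others. The highest day 0 medians among the Hox genes were 19.9 for Hoxa7, a central gene, and 16.4 for the posterior gene Hoxb9. Pbx2 already had 427 to 983 normalized counts and Pbx3 159 to 715, while Meis1 had 16.2 to 48.5 and Meis2 0.898 to 30.9. The untested posterior and central Hoxd genes remained low throughout, at up to 16 for Hoxd8, 7.87 for Hoxd11 and 10.4 for Hoxd13 over all libraries.

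**Figure D1:**
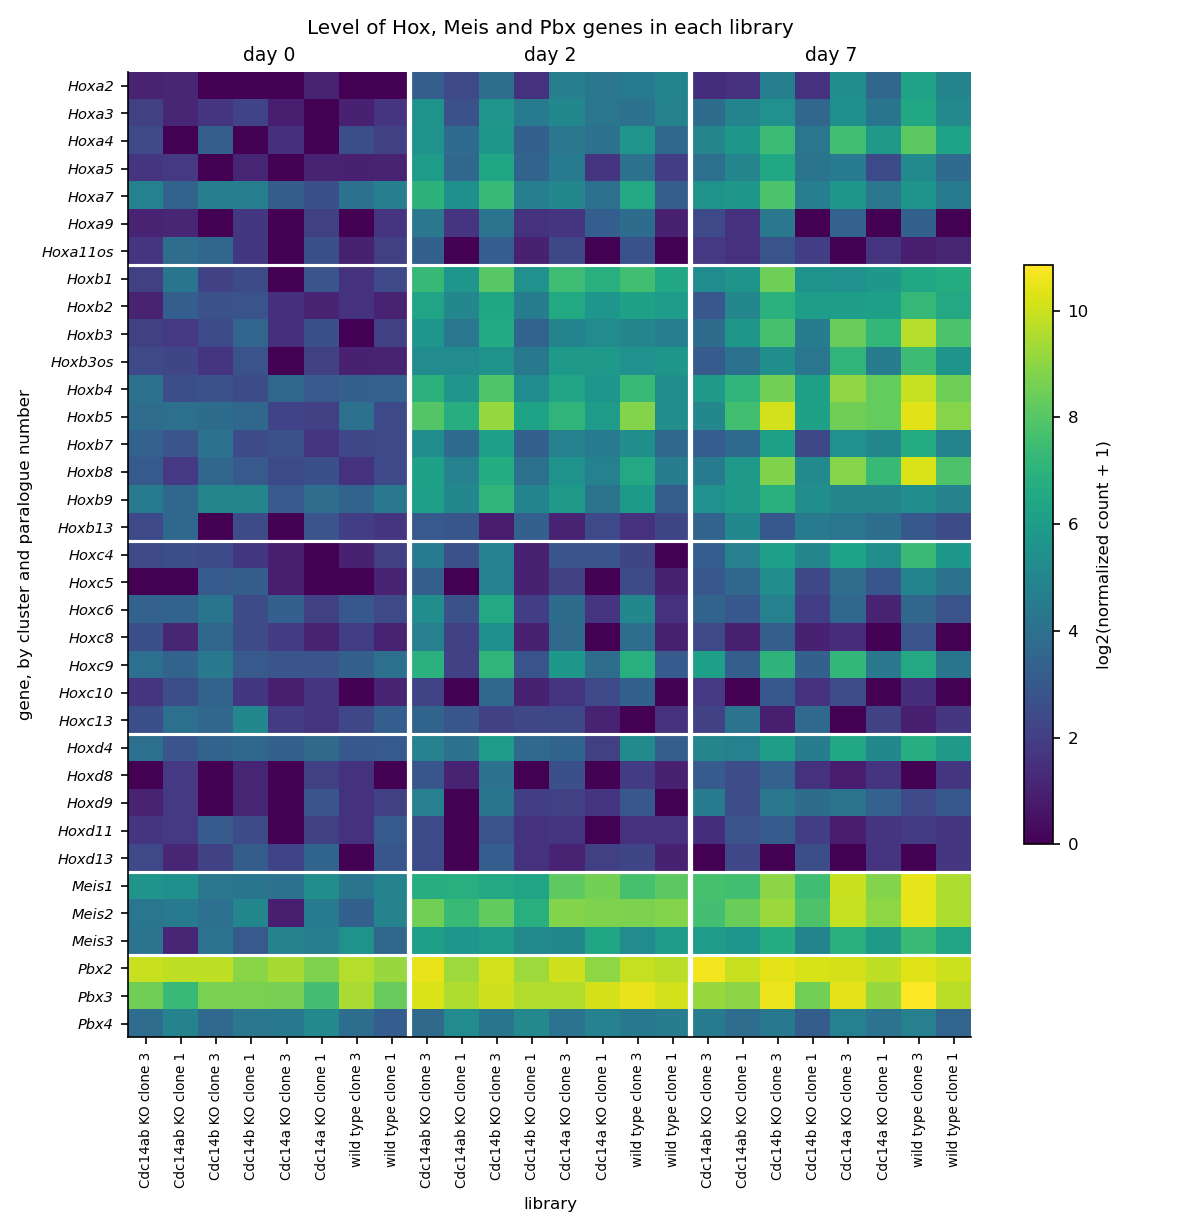
Level of 35 of the 37 genes (rows, by cluster and paralogue number) in each of the 24 libraries (columns, by day, genotype and clone), as log2(normalized count + 1) in colour. Anterior genes of Hoxa and Hoxb are dark at day 0 and brighter from day 2 in most lines, while Hoxa2 stays dark in some Cdc14b-null lines. The posterior genes stay darker, and Pbx2 and Pbx3 are bright at each day.

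Over the first 2 days the anterior genes of Hoxa and Hoxb rose together with the Meis genes in the mean over the 4 genotypes. Over the 4 genotypes, 18 of the 34 tested members rose from day 0 to day 2 and none fell, while 8.5% of all tested genes rose, 6.36% fell and 14.9% were called in either direction. By position, 8 of 10 anterior, 4 of 8 central and 0 of 7 posterior genes rose. With each line paired to itself across days the count was 20, with the central gene Hoxa7 (adjusted p = 0.0286) and the posterior gene Hoxb9 (adjusted p = 0.0455) added. The median log2 difference was 3.12 in the anterior, 1.64 in the central and 0.88 in the posterior genes, against -0.001 over all genes. In these bulk libraries more cells with a transcript and more RNA per cell cannot be told apart.

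Hoxb1, the earliest hindbrain gene of its cluster and mark of rhombomere 4, showed the largest rise among members. Its lowest, median and highest levels over the 8 lines were 0, 3.8 and 17.7 normalized counts at day 0, 43.9, 133 and 262 at day 2, and 37.8, 51.2 and 353 at day 7. Day 2 and day 0 did not overlap (log2 difference 4.64 ± 0.50, 24.9-fold, adjusted p = 1.34e-05). Hoxb2, its neighbour in the cluster, had 22.9, 67.4 and 95.4 normalized counts at day 2 against 1.04, 1.90 and 8.86 at day 0 (3.98 ± 0.39, adjusted p = 4.66e-06). Both genes were higher at day 2 than at day 0 in 8 of 8 lines. Further anterior genes that rose included Hoxa2 (3.28 ± 0.47), Hoxa3 (3.24 ± 0.44), Hoxa4 (3.03 ± 0.62), Hoxb3 (2.97 ± 0.54) and Hoxb4 (3.15 ± 0.45). Their day 2 medians were 16.7 normalized counts for Hoxa2, 17.2 for Hoxa4, 29.2 for Hoxb3 and 64.7 for Hoxb4. The antisense transcript Hoxb3os, which overlaps Hoxb2 and Hoxb3 on the other strand and was counted apart from them only if counting used the strand, rose by 3.77 ± 0.42.

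The central genes that rose by day 2 were Hoxa5 (3.01 ± 0.58), Hoxb5 (3.92 ± 0.61), Hoxb7 (1.88 ± 0.53, adjusted p = 0.0231) and Hoxb8 (2.83 ± 0.55). Hoxb5 reached a median of 121 normalized counts at day 2 (39.6 to 565), against 12.6 at day 0 (3.12 to 15.2). Hoxb8 had 15.0 to 105 at day 2 and 2.00 to 11.1 at day 0, without overlap. No gene of Hoxc or Hoxd was called at this step, including the anterior genes Hoxc4 (0.97 ± 0.53, adjusted p = 0.225) and Hoxd4 (0.68 ± 0.40, adjusted p = 0.269). Among posterior genes the nearest to the threshold was Hoxb9 (1.20 ± 0.42, adjusted p = 0.0592).

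All 3 Meis genes rose with them. Meis2, a TALE partner found in hindbrain and forebrain, had 0.898, 19.1 and 30.9 normalized counts at day 0, 116, 396 and 459 at day 2, and 192, 550 and 1403 at day 7 (lowest, median and highest of 8 lines). Its day 2 difference was 4.36 ± 0.43 (20.6-fold, adjusted p = 5.67e-06), with no overlap between days. Meis1 rose by 2.61 ± 0.25 (adjusted p = 4.09e-06) and Meis3 by 1.81 ± 0.42 (adjusted p = 0.00792). Meis3 stood at 1.27 to 45.1 normalized counts at day 0, 32.1 to 83.3 at day 2 and 28.4 to 166 at day 7, the smallest response of its family. Pbx3 (1.57 ± 0.30, adjusted p = 0.00207) rose from a level that was already high. Pbx2 (0.30 ± 0.22, adjusted p = 0.389) and Pbx4 (0.36 ± 0.33, adjusted p = 0.491) were not called. Pbx4 remained low, at 8.54 to 33.3 normalized counts at day 0, 12.3 to 36.6 at day 2 and 8.10 to 26.0 at day 7.

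Between days 2 and 7, 9 of 34 members rose and none fell, against 12.1% of all genes higher, 9.3% lower and 21.4% in either direction: Hoxc4 (2.86 ± 0.53, adjusted p = 0.00105), Hoxc5 (1.94 ± 0.62, 0.0314), Hoxb8 (1.92 ± 0.55, 0.019), Hoxb3 (1.89 ± 0.54, 0.0189), Hoxa4 (1.76 ± 0.62, 0.0485), Hoxb4 (1.60 ± 0.45, 0.0165), Hoxb13 (1.52 ± 0.52, 0.0434), Hoxd4 (1.5 ± 0.40, 0.0129) and Meis1 (1.44 ± 0.25, 0.000701), each with its adjusted p. Of the 9, Hoxa4, Hoxb3, Hoxb4, Hoxb8 and Meis1 had also risen by day 2. Among the 9 are the genes with paralogue number 4 of all 4 clusters. Hoxb1 (-0.68 ± 0.50, adjusted p = 0.361) had a negative difference that was not called. The count was 4 without wild-type clone 3 and 5 without Cdc14a KO clone 3 at day 7, and Hoxc4, Hoxb4, Hoxd4 and Meis1 were called in every alternative and with any 1 library left out.

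The share of the day 7 mean that was present at day 2 did not follow paralogue number. It was 138% for Hoxb1, 83.4% for Hoxb2, 65.4% for Hoxa2 and 77.9% for Hoxa3. It was 28% for Hoxb4, 24.8% for Hoxa4, 15.2% for Hoxc4 and 40.4% for Hoxd4, and 16.6% for Hoxb3 and 15.6% for Hoxb8. Among further central and posterior genes it was 92.4% for Hoxa5, 104% for Hoxa7, 77.1% for Hoxb7 and 106% for Hoxb9, and in Hoxc 250% for Hoxc6, 445% for Hoxc8 and 92.3% for Hoxc9. Hoxb4, at 4.75, 8.15 and 15.8 normalized counts at day 0, had 37.9, 64.7 and 236 at day 2 and 55.4, 331 and 961 at day 7, higher at day 7 than at day 2 in 7 of 8 lines. Single lines varied widely around these means (Hoxb4, 11.6% to 225%).

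**Figure D2:**
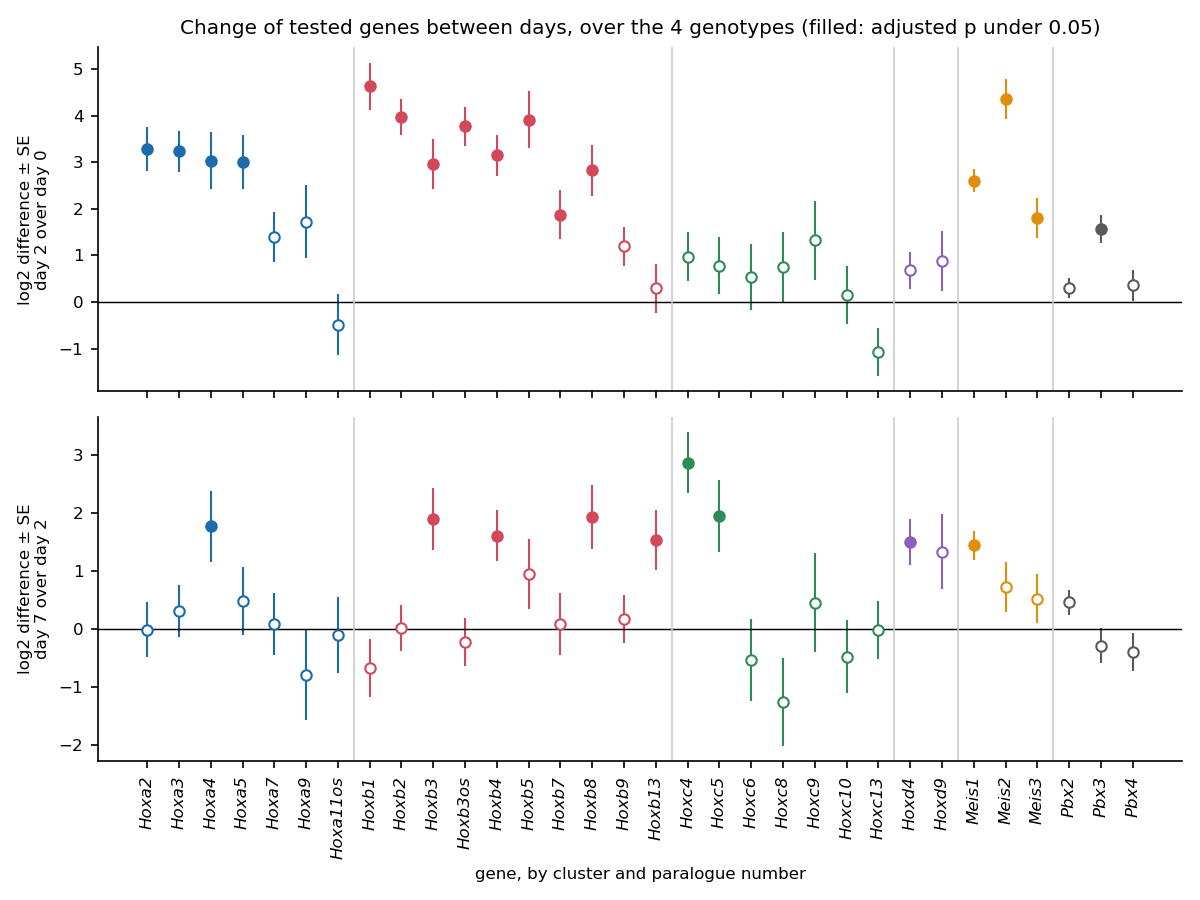
Log2 difference ± SE of 32 of the 34 tested genes over the 4 genotypes, day 2 over day 0 (top) and day 7 over day 2 (bottom), by cluster and paralogue number, filled where called. At day 2 the Hoxb values run between 4.64 at Hoxb1 and 0.29 at Hoxb13, and by day 7 the filled points include Hoxa4, Hoxb4, Hoxc4 and Hoxd4.

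By day 7 the anterior Hox genes of all 4 clusters had risen in the mean over the 4 genotypes, though Hoxa2 stayed low in some lines. It was at 1.68 and 1.97 normalized counts in Cdc14ab KO (clones 3 and 1) and 2.03 in Cdc14b KO clone 1. Its day 0 maximum was 1.27. From day 0 to day 7, 26 of 34 members rose and none fell, against 20.9% of all genes higher, 17.4% lower and 38.2% in either direction. These were 10 of 10 anterior, 6 of 8 central and 3 of 7 posterior genes, Hoxb3os and 3 of 3 Meis genes among others. By cluster, 9 of 9 coding Hoxb genes and 6 of 7 Hoxa genes rose, but 2 of 7 Hoxc genes, Hoxc4 and Hoxc5. The posterior genes that rose were Hoxb9 (1.36 ± 0.42), Hoxb13 (1.82 ± 0.52) and Hoxd9 (2.21 ± 0.65). Pairing each line to itself across days gave 27 members, with Hoxc9, a posterior gene of Hoxc, added. Its paired difference was 1.78 ± 0.53 (adjusted p = 0.0147, against 0.109 unpaired). Hoxb13, the last gene of its cluster, reached a median of 12.1 normalized counts. Hoxd4 had 6.33 to 14.8 normalized counts at day 0, 3.16 to 61.7 at day 2 and 23.3 to 108 at day 7, higher at day 7 than at day 2 in 8 of 8 lines. Hoxc4 had 0 to 5.06, 0 to 27.0 and 8.39 to 166 over the same days. Hoxc13, which acts in hair and nail, had a difference of -1.10 ± 0.51 (adjusted p = 0.0956). Meis1 had a median of 23.3 normalized counts at day 0 (16.2 to 48.5), 158 at day 2 (80.7 to 388) and 478 at day 7 (185 to 1416), each day above the one before in 8 of 8 lines (day 7 over day 0, 4.04 ± 0.25, adjusted p = 5.92e-09). Pbx2, uncalled at day 2, was 0.75 ± 0.22 above day 0 (adjusted p = 0.0123). The 12 feeder fibroblast markers of a list summed to 387 to 3217 normalized counts at day 7 and 173 to 435 at day 0. Of tested trophectoderm markers 5 of 7 rose by day 7 and of tested endoderm markers 4 of 4. The part of these cell types in the changes was not tested.

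Genes that act on Hox clusters were taken from a list. Of 28 tested regulators of the retinoic acid, caudal and chromatin groups, 11 rose and 1 fell by day 2, against 8.5% of all genes higher and 6.36% lower. By day 7, 13 rose and 5 fell, against 20.9% of all genes higher and 17.4% lower, so that the fall was close to that of all genes. Cyp26b1, which breaks down retinoic acid, rose by 2.72 ± 0.49 at day 2 and 5.21 ± 0.49 at day 7. By day 7 the receptor gene Rxra rose by 2.01 and Stra6, the retinol importer, by 3.8 ± 0.44. Gbx2, which sets the front edge of the hindbrain, rose by 3.00 ± 0.36 by day 2 and fell by 2.26 between days 2 and 7. Hotairm1, a non-coding transcript of the Hoxa cluster, rose by 2.26 ± 0.37 at day 2 and 2.99 ± 0.37 at day 7, and of 4 other TALE genes Pknox2 rose (3.03 ± 0.39 at day 7) while Pknox1 and Tgif1 fell. Of 9 tested hindbrain and spinal cord genes other than Hox, 4 rose by day 7 and none fell, beside the same 20.9% and 17.4% of all genes, and those that rose included Tshz2, Tshz1 and Lbx1. Of 7 tested forebrain and midbrain genes Six6 and Pax2 rose and Otx2 fell (-1.24 ± 0.47), shares not far from those of all genes.

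No member was called between Cdc14b-null and Cdc14b-intact lines at day 0 or day 2. The share of all genes called was 0.0124% at day 0 and 0% at day 2. At day 0, 4 of the 34 members had an unadjusted p under 0.05 and edgeR and DESeq2 called none. At day 2 the number was 3, edgeR called none and DESeq2 called Meis1. The share of all genes with an unadjusted p under 0.05 is not given here, so these member counts show no excess. Meis1 was at 80.7 to 110 normalized counts in the 4 Cdc14b-null lines and at 207 to 388 in the 4 Cdc14b-intact lines at day 2, and its difference of -1.53 ± 0.36 had an adjusted p of 0.352. The median difference of anterior genes was 0.05 and that of central genes 1.00, against -0.002 over all genes.

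At day 7, 3 of 34 members were lower in Cdc14b-null lines and none was higher, against 2.95% of all genes lower, 0.805% higher and 3.75% in either direction. They were Hoxa2, Hoxb3 and Meis1. The median difference was -1.32 over the 10 anterior genes, 8 of which were negative, 0.08 over the central genes and 0.58 over the posterior genes, against -0.01 over all genes. For the 3 Meis genes it was -1.46. The central genes went both ways. Among clone 3 and clone 1 lines Hoxb5 differed by -1.89 and -1.70, Hoxb7 by -1.38 and -1.88 and Hoxb8 by -2.94 and -2.09. Hoxc5 was negative too (-0.26 and -0.50). Positive were Hoxa5 (0.45 and 1.46), Hoxa7 (0.97 and 0.80), Hoxc6 (0.50 and 0.58) and Hoxc8 (0.73 and 1.00).

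Hoxa2 had 1.68 and 1.97 normalized counts in Cdc14ab KO (clones 3 and 1) and 24.5 and 2.03 in Cdc14b KO, against 41.5 and 10.9 in Cdc14a KO and 75.1 and 29.1 in wild type. In 3 of the 4 Cdc14b-null lines it was thus near the level of 3 reads (2.44 to 3.49 normalized counts over day 7 libraries), and clone 3 of Cdc14b KO lay within the intact range. The difference was -2.72 ± 0.67 (6.59-fold lower, adjusted p = 0.0294). Hoxb3, a gene of the posterior hindbrain, had 13.4 and 53.1 in Cdc14ab KO and 204 and 23.3 in Cdc14b KO, against 345 and 144 in Cdc14a KO and 795 and 217 in wild type (-2.79 ± 0.76, 6.89-fold lower, adjusted p = 0.0493). Meis1 had 205 and 187 in Cdc14ab KO and 498 and 185 in Cdc14b KO, against 994 and 457 in Cdc14a KO and 1416 and 724 in wild type (-1.76 ± 0.36, 3.38-fold lower, adjusted p = 0.0116). In all 3 genes clone 3 of Cdc14b KO overlapped the lower intact line and the other 3 Cdc14b-null lines lay below every intact line. Hoxb3os (-1.97 ± 0.59, adjusted p = 0.0656), Hoxb8 (-2.52 ± 0.78, 0.0771) and Hoxb4 (-2.0 ± 0.63, 0.0832) came near the threshold with their adjusted p. Hoxb1, the earliest gene of its cluster, did not (0.11 ± 0.71, adjusted p = 0.957). Its value averaged opposite signs, 0.87 among clone 3 and -0.66 among clone 1 lines, with 353 normalized counts in Cdc14b KO clone 3.

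**Figure D3:**
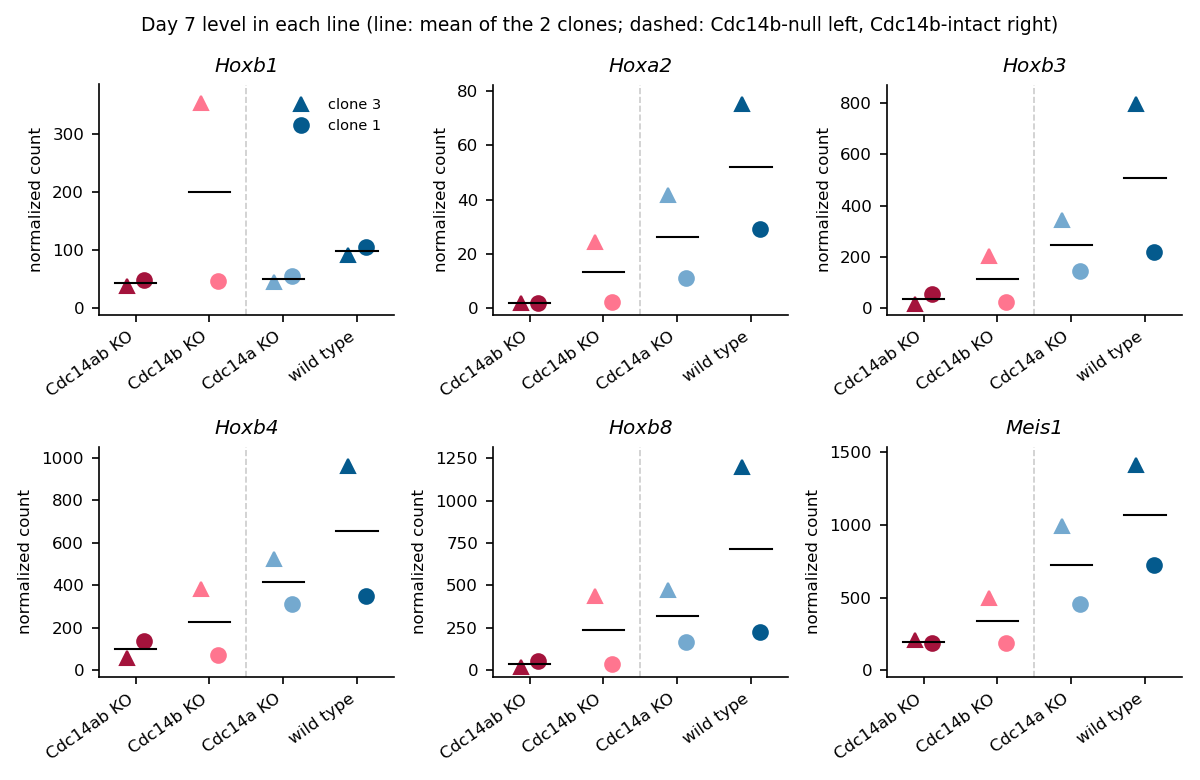
Normalized counts at day 7 of 6 genes in each line, by genotype, triangles for clone 3 and circles for clone 1, bars at the mean of the 2 clones, Cdc14b-null genotypes left of the dashed line. For Hoxa2, Hoxb3 and Meis1 the triangle of Cdc14b KO (24.5, 204 and 498) stands apart from the other 3 Cdc14b-null points, and wild-type clone 3 is the highest point (75.1, 795 and 1416).

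These 3 calls rested on single lines. Without wild-type clone 3, Cdc14a KO clone 3 or Cdc14b KO clone 1 at day 7, none of the 34 members was called. It was 1 without Cdc14ab KO clone 3, 2 without Cdc14ab KO clone 1 and 5 without wild-type clone 1. Without Cdc14b KO clone 3 it was 7, with Hoxa2, Hoxb3, Hoxb4, Hoxb7, Hoxb8 and Meis1 among them. With clone number as a block, 5 were called (Hoxa2, Hoxb3, Hoxb4, Hoxb8 and Meis1), beside 5.69% of all genes. With a fit of the compared groups alone none was called, beside 2.14% of all genes. The number of all genes called also moved with the line left out. Among the fits that left out 1 line, it was lowest where no member was called. The loss of calls was thus not confined to members. The differences had the same sign in both clones: -2.78 among clone 3 lines and -2.66 among clone 1 lines for Hoxa2, -3.27 and -2.30 for Hoxb3, and -1.89 and -1.62 for Meis1. These come from the same values that gave the calls, so the shared sign is no separate support for them.

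Other features of the lines moved with genotype. Summed neuron markers (7) were 1126 to 2402 normalized counts in Cdc14b-null and 2859 to 9103 in Cdc14b-intact lines at day 7, with 4 of 7 called lower. At day 0 this sum was already 2815 to 4416 in Cdc14b-null and 1847 to 2499 in Cdc14b-intact lines, so it is not particular to neurons. The 6 neural progenitor markers in the table summed to 159 to 1520 in Cdc14b-null and 1047 to 3954 in Cdc14b-intact lines, with 3 called lower. The 12 feeder fibroblast markers summed to 387 to 1989 in Cdc14b-null and 2257 to 3217 in Cdc14b-intact lines, with none called. Of the neuron list Snap25, of the progenitor list Ptprz1 and of the feeder list Lum was at 0 in a Cdc14b-null library, and no marker of these lists was at 0 in all of them. The 8 ESC markers summed to 12807 to 21894 in Cdc14b-null and 8448 to 14706 in Cdc14b-intact lines (medians 17236 and 13022), with 1 called higher. The 6 endoderm markers in the table summed to 99.3 to 314 in Cdc14b-null and 247 to 686 in Cdc14b-intact lines, with 1 of 4 tested called lower. The 7 trophectoderm markers in the table summed to 6770 to 45963 in Cdc14b-null and 6980 to 12220 in Cdc14b-intact lines, with none called. No marker of these last 3 lists was at 0 in a Cdc14b-null library. The 4 Y-linked genes examined summed to 4.40 to 65.0 normalized counts over days in the Cdc14b-null lines. Among Cdc14b-intact lines, clone 3 had 68.4 to 89.8 in Cdc14a KO and 69.1 to 201 in wild type. Clone 1 had 512 to 546 in Cdc14a KO and 417 to 465 in wild type. The lines thus also differed in sex-chromosome transcripts, by genotype and, among Cdc14b-intact lines, by clone number. The part of cell make-up in the Hox and Meis differences was not tested, and genotype and sex-chromosome content cannot be told apart in this design. Of the 28 regulators Gdf11 was lower in Cdc14b-null lines (-1.71 ± 0.37, adjusted p = 0.0166).

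**Figure D4:**
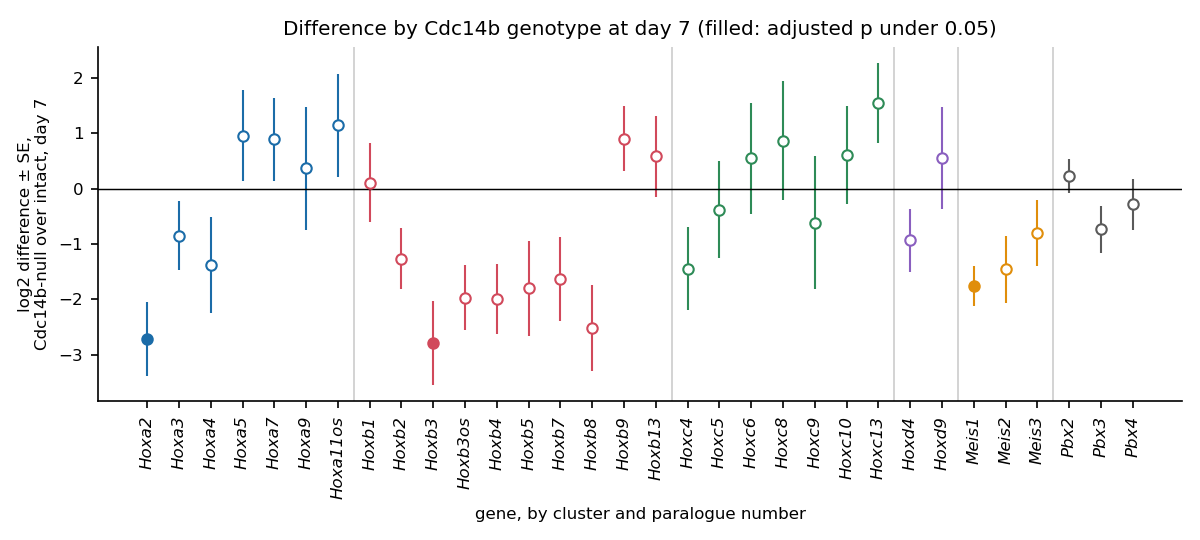
Log2 difference ± SE between Cdc14b-null and Cdc14b-intact lines at day 7 for 32 of the 34 tested genes, by cluster and paralogue number, filled where called. Hoxa2, Hoxb3 and Meis1 are filled at -2.72, -2.79 and -1.76, and Hoxb9 and Hoxb13 lie above 0 at 0.90 and 0.58.

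Set against wild type alone, the calls lay in the double knockout, although the knockouts were not tested against each other. In Cdc14ab KO at day 7, Hoxa2 (-4.09 ± 0.95, adjusted p = 0.0357) and Meis1 (-2.37 ± 0.50, adjusted p = 0.0252) were lower than in wild type, 2 of 34 members against 1.45% of all genes lower, 0.0805% higher and 1.53% in either direction. Without clone 3 of either genotype none was called. Without Cdc14ab KO clone 1 the call was Hoxb2 and not Hoxa2 or Meis1, and without wild-type clone 1 it was Meis1. Cdc14ab KO clone 3 stood apart in trophectoderm markers, whose day 7 sum was 45963 normalized counts there, 11659 in clone 1, and 6980 and 9169 in wild type (clones 3 and 1). Of this list the keratin gene Krt18 had 23242 and 3847 in Cdc14ab KO against 3700 and 4481 in wild type, and no marker was at 0. Neural progenitor markers summed to 159 and 348 in Cdc14ab KO against 3954 and 1734 in wild type. The part of these cells in the calls was not tested. Hoxb2 had 6.72 and 31.4 normalized counts in Cdc14ab KO against 149 and 91.9 in wild type (-2.90 ± 0.78, adjusted p = 0.0746). The median was -2.24 over anterior, -0.60 over central and 0.62 over posterior genes, against 0.02 over all genes. In Cdc14b KO no member was called (0% of genes), with medians of -1.15, -0.23 and 1.00 for anterior, central and posterior genes and 3 of 34 members at an unadjusted p under 0.05. In Cdc14a KO none was called either (0% of genes), the medians were -0.76, -0.87 and 0.39, and no member had an unadjusted p under 0.05. These 3 comparisons share the 2 wild-type lines, and wild-type clone 3 was the higher wild-type line in all 3 Meis genes, so their values are not independent of each other. At day 2 no member was called in any knockout against wild type (0% of genes in each), with 3 members at an unadjusted p under 0.05 in Cdc14ab KO, 1 in Cdc14b KO and 0 in Cdc14a KO, and none by edgeR or DESeq2. For the unadjusted counts of both days the share of all genes is not given here, so they show no excess or lack.

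The change from day 0 to day 7 was smaller in Cdc14b-null lines for Meis1 (-2.03 ± 0.50, adjusted p = 0.0382) and Hoxb3os (-3.23 ± 0.83, adjusted p = 0.0414), 2 of 34 members against 1.68% of all genes with a called negative, 1.58% with a called positive and 3.26% with any called interaction. With each line paired to itself across days the count was 4, with Hoxb7 (adjusted p = 0.044) and Hoxb8 (adjusted p = 0.0473) added. Leaving out 1 library gave 6 members without Cdc14b KO clone 3 at day 7, 3 without Cdc14ab KO clone 3 at day 0, and 2 without clone 1 of Cdc14a KO or of wild type at day 7. Without any other library of days 0 and 7 it was 0 or 1, and with clone 3 of wild type or of Cdc14a KO left out on either day it was 0. Of 10 anterior genes 9 had a negative interaction (median -1.68), against 3 of 7 posterior genes (median 0.06) and a median of -0.06 over all genes. Neither value is a test of anterior against posterior genes.

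The 2 clones of a genotype differed widely in Hox level. At day 7 the 10 anterior genes summed to 211 and 446 normalized counts in Cdc14ab KO (clones 3 and 1), 1521 and 320 in Cdc14b KO, 1423 and 766 in Cdc14a KO and 2727 and 1048 in wild type. The 9 central genes summed to 149 and 366, 1994 and 164, 981 and 540, and 2750 and 793 in the same order. Clone 3 was thus the higher in 3 genotypes and the lower in Cdc14ab KO. A comparison of clone numbers over the 4 genotypes was added after this pattern was seen, and it is a description of these 8 lines, as the labels do not say what clones of the same number share.

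At day 2, 11 of 34 members were higher in clone 3 lines and none was lower, against 1.48% of all genes higher, 0.644% lower and 2.12% in either direction. They were 5 of 8 central, 3 of 7 posterior and 1 of 10 anterior genes, with Hoxa11os and Pbx2. The largest differences fell in the middle of Hoxc, a cluster with no called change from day 0 to day 2. Hoxc9, a gene of thoracic spinal cord, had 122, 138, 53.9 and 111 normalized counts in clone 3 of Cdc14ab KO, Cdc14b KO, Cdc14a KO and wild type, against 3.23, 5.98, 13.7 and 7.74 in clone 1 (3.69 ± 0.45, adjusted p = 0.00118). Hoxc8 had 12.4 to 43.1 in clone 3 lines against 0 to 3.23 in clone 1 lines (3.45 ± 0.48, adjusted p = 0.00133), and Hoxc6 13.5 to 92.9 against 1.93 to 5.38 (3.22 ± 0.51, adjusted p = 0.00338). None of the 3 overlapped between clone numbers, and at day 0 the clone difference of Hoxc9 was 0.30 and was not called. Hoxa5 (2.56 ± 0.49), Hoxb9 (1.91 ± 0.38) and Hoxd9 (2.57 ± 0.63) followed the same way. Hoxc5 (2.66 ± 0.59) was called too, but it shares a strand and bases with Hoxc6, Hoxc8 and Hoxc9.

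The median day 2 difference of anterior genes was positive in both clone numbers, whereas that of posterior genes was not, and these values were not tested. Of 10 anterior genes, 10 in clone 3 and 8 in clone 1 lines had a log2 difference over 1. From day 0 to day 2 the median log2 difference of anterior genes was 3.75 in clone 3 and 2.68 in clone 1 lines. That of central genes was 2.29 in clone 3 and 0.96 in clone 1 lines, and that of posterior genes 2.26 in clone 3 and -0.37 in clone 1 lines. Hoxb1 was higher at day 2 in 4 of 4 lines of each number (6.14 in clone 3, 3.13 in clone 1), whereas Hoxc9 was higher at day 2 than at day 0 in 4 of 4 clone 3 lines and 1 of 4 clone 1 lines (3.02 in clone 3, -0.37 in clone 1). The mean over 8 lines therefore averages clone numbers with a positive and with a negative posterior median. Most posterior genes had few reads at day 2, so the negative median rests on low values. Hoxa9 reached 10 normalized counts in 3 of 8 libraries, Hoxd9 in 2, Hoxc10 and Hoxc13 in 1, and Hoxb13 in 0.

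Feeder fibroblast markers moved with clone number at day 2. The 12 markers summed to 636 to 2057 normalized counts in clone 3 lines and 115 to 361 in clone 1 lines, and 6 of 12 were called higher. None was at 0 in a clone 3 library at day 2, while Col6a3, Postn, Lum, Twist2 and Pdgfrb were at 0 in at least 1 clone 1 library. At day 0 the sums were 173 to 300 in clone 3 and 181 to 435 in clone 1 lines. Other lists held genes that moved with clone number at day 2. Of 7 tested mesoderm markers T was called higher in clone 3 lines (34.8 to 112 normalized counts, against 1.99 to 11.6 in clone 1), of 4 tested endoderm markers Foxa2 (85.3 to 127, against 7.53 to 26.1), and of 7 tested trophectoderm markers Cdx2, a caudal gene that acts on Hox clusters (23.7 to 66.8, against 1.93 to 6.46) and Krt18. The summed levels in clone 3 and clone 1 lines were 137 to 338 and 131 to 193 for mesoderm, 246 to 401 and 86.1 to 264 for endoderm, and 4458 to 7271 and 2851 to 5178 for trophectoderm. Tbx6 was at 0 in a clone 3 library, Gata6 in a clone 1 library and Sox17 in a library of each. The Y-linked sums given above were also lower in clone 3 than in clone 1 of Cdc14a KO and of wild type. The part of these cell types and of sex-chromosome content in the clone difference was not tested.

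**Figure D5:**
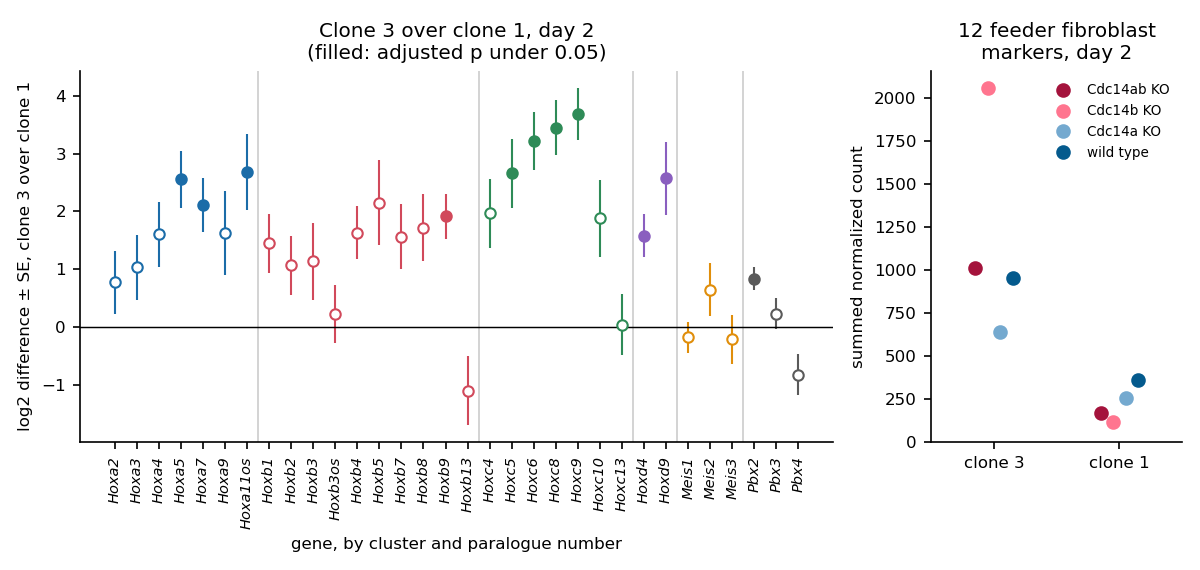
Left, log2 difference ± SE between clone 3 and clone 1 lines at day 2 for 32 of the 34 tested genes, filled where called; right, summed normalized counts of 12 feeder fibroblast markers in each line at day 2. Hoxc6, Hoxc8 and Hoxc9 are the highest points on the left (3.22, 3.45 and 3.69), and on the right all clone 3 lines (636 to 2057) lie above the clone 1 lines (115 to 361).

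At day 7 the clone difference was called in 4 members, against 1.16% of all genes higher, 1.56% lower and 2.72% in either direction. Hoxc9 had 69 to 143 normalized counts in clone 3 and 8.84 to 19.6 in clone 1 lines (2.93 ± 0.45, adjusted p = 0.0018), and Hoxa9 (2.99 ± 0.73), Hoxc8 (1.97 ± 0.48) and Pbx3 (1.14 ± 0.27) were higher as well. Feeder marker sums overlapped at this day, at 387 to 2901 in clone 3 and 925 to 3217 in clone 1 lines. At day 0 the called member was Meis3 (1.54 ± 0.43, adjusted p = 0.04), against 3.08% of all genes higher, 3.55% lower and 6.63% in either direction. With edgeR the counts were 9 at day 2, 2 at day 7 and 0 at day 0, against 1.73%, 2.44% and 5.38% of all genes in either direction.

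With 2 clones per genotype and day the p-values measure the spread between clones, and the fit assumes that all groups vary alike. For a difference between 2 genotypes the median SE over genes was 0.55.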

How the data were processed

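The deposited table gave signal values: gene counts that the authors had normalized with DESeq2, per the submitters' processing notes, which also name TopHat2 2.0.10, Bowtie 1.0.0, HTSeq 0.6.1 and the build GRCm38. Every column was whole reads divided by 1 size factor (100% of values whole within 0.001), and these reads served the count-based alternatives. No column was left unused. Members were placed with GENCODE M21, in which 99.6% of symbols matched. Values were tested as log2(normalized count + 1) with limma 3.58.1 in R 4.3.3 (12 group means over 24 libraries, eBayes with trend and robust, 12 residual degrees of freedom), for the 16158 genes reaching 10 normalized counts in 2 or more libraries, with Benjamini-Hochberg adjustment over all of them. Each adjusted p is limma's unless another tool is named. The procedure was tested on simulated data. Alternatives were a pseudocount of 5, no filter, TMM factors, edgeR 4.0.16, DESeq2 1.42.0, the compared groups alone, replicate blocks, leaving out 1 library in turn, and leaving out the 3 libraries rich in Gm42418. Lines are the same across days and were paired for day comparisons by that label (deviations correlated at -0.115 to 0.248). Across genotypes only the number is shared, though same-numbered clones deviated together at day 7 in all 6 genotype pairs (0.231 to 0.541). The block is given there. Named by rule were Meis and Pbx genes, Hox genes averaging 20 normalized counts or more in a group, the 12 called members with the largest change per comparison, and the 4 genes with the smallest adjusted p per other list. Further members were named to account for the rest, and some items are not reported here. Members, lists and tests were chosen with earlier results of these data known. Figures were drawn with matplotlib 3.10.9 in Python 3.11.15.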

Additional observations from a re-analysis of the deposited data

Results flagged for a closer look

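Among groups of 4 lines, Cdc14b KO clone 3 at day 7 lay far above the other 3 Cdc14b-null lines in 8 members. Its normalized counts were 24.5 for Hoxa2 (nearest other line 2.03), 218 for Hoxa7 (53.1), 353 for Hoxb1 (48.1), 1091 for Hoxb5 (191), 70.0 for Hoxb7 (12.8), 440 for Hoxb8 (56.0), 67.3 for Hoxd4 (29.4) and 498 for Meis1 (205). Wild-type clone 3 at day 7 lay above the other 3 Cdc14b-intact lines in Hoxb5 (1319, nearest 477). Such gaps were found in 9 of 112 groups of values, and members of a line are not independent of each other. Chance marks about 1 in 20 groups of normally distributed values. The gaps were taken on normalized counts and not on log2 values, so that rate need not apply here. The change from day 0 to day 7 differed with Cdc14b by a test of the interaction in Hoxb3os (-3.23) and Meis1 (-2.03).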

How the results depend on the processing

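The 12 members with the largest change at day 2 over day 0 and the 12 at day 7 over day 0 were called under every alternative and with any 1 library left out. No value of a named member changed sign. Among single-gene values 809 were on the same side of the threshold and 103 were lost. For Cdc14b-null against intact at day 7 (3 members), DESeq2 called 6, the compared groups alone 0, the replicate block 5 and the fit without the libraries rich in Gm42418 1, and leaving out 1 library gave 0 to 7. For the interaction (2 members), a pseudocount of 5 gave 1, edgeR 0, DESeq2 4, the compared groups alone 0, the replicate block 4 and no Gm42418-rich libraries 0, with 0 to 6 when 1 library was left out. At day 7 the Cdc14ab KO difference from wild type (2 members) changed likewise: a pseudocount of 5 gave 5, edgeR 1, DESeq2 8, the compared groups alone 0, the replicate block 4 and no Gm42418-rich libraries 0, with 0 to 1 when 1 library was left out. For Cdc14b at day 2 DESeq2 called 1 member, and leaving out 1 library gave 0 to 1 at day 0. Day 7 over day 2 gave 4 to 9 (4 without wild-type clone 3 at day 7). The replicate block called 20 members at day 2 over day 0, 10 at day 7 over day 2 and 27 at day 7 over day 0. The causes were not tested.

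Over all genes DESeq2 called 1423 against 606 for the Cdc14b difference at day 7 and 1434 against 527 for the interaction, the replicate block 920 against 606 at day 7, and the compared groups alone 345 against 606. For Cdc14b at day 0 and day 2 DESeq2 called 68 against 2 and 49 against 0 genes, for Cdc14b KO at day 7 it called 167 against 0, and for Cdc14ab KO at day 7 650 against 247. For the last, the replicate block called 376, the compared groups alone 0 and the fit without Gm42418-rich libraries 114. With 1 library left out the genes called were 5 to 773 for Cdc14b at day 7, 2 to 939 at day 0, 0 to 1870 for the interaction, 0 to 517 for Cdc14ab KO and 0 to 65 for Cdc14b KO at day 7. Without the Gm42418-rich libraries 1147 genes were called against 2402 at day 2 over day 0, and 0 against 527 for the interaction. As a hint of pairing by number, clone deviations correlated between genotypes at 0.119 to 0.512 at day 0 and -0.134 to 0.628 at day 2, and a crossed block between Cdc14ab KO and wild type at day 2 called 0 genes, as the replicate block did. TMM factors moved the median of all genes by at most 0.035. In depth, 3 reads were worth 2.18 to 3.8 normalized counts.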
